A study of Mus musculus with 8 samples.

Results

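Open chromatin in brown adipose tissue (BAT) lay not only at transcription start sites (TSSs) but also in the sequence just beyond them. The flanking summits described here are the ATAC-seq summits that lay more than 1 kb and at most 5 kb from the nearest TSS of a curated RefSeq mRNA, outside every exon of such an mRNA, on chromosomes 1 to 19. They numbered 4181 of the 31729 summits on these chromosomes, which is 13.2% with a 95% Wilson interval of 12.8 to 13.6, and of 32173 summits in the whole list. ATAC-seq cuts accessible DNA with the Tn5 transposase, and a summit is the base at which a peak of cuts is highest.

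The list came from 4 libraries of BAT nuclei, 2 from WT and 2 from Dot1L-BKO mice, each library from a separate mouse. Per the study's methods, WT mice were littermates that carried the floxed Dot1l allele without Cre, and Dot1L-BKO mice carried the same floxed allele with Ucp1-Cre, so that the deletion was directed to cells that express Ucp1 and other cells of the tissue kept the gene. The labels give all mice as 12 weeks old and killed after 4 hours in the cold at 4 °C. Dot1l is the methyltransferase of histone H3 lysine 79, a mark found over transcribed genes. The 4 libraries stand together in 1 list with 1 score per summit and no value per library. No value could therefore be compared between genotypes, no replicate error could be given, and the depth is unknown. The label of the list sets the WT libraries against those of Dot1L-BKO, and it is not known here if the Dot1L-BKO reads were the background in peak calling. The score is the −log10 of the q-value from MACS2, so that a higher score means stronger evidence for a peak over whichever background was used. Intervals below cover counting error only.

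Brown adipocytes burn fuel to make heat through Ucp1, the uncoupling protein of the inner mitochondrial membrane. Their genes are read under the control of Pparg, C/EBP factors, Ebf2 and Prdm16, and are raised in the cold by noradrenaline acting through cAMP. Promoters hold the start site, while enhancers are open stretches at a distance, within introns or between genes, that bind such factors. The sequence a few kb from a start site can hold either. The enhancer upstream of Ucp1 is among the best studied examples in this tissue.

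The 3 flanking summits of Ucp1 are shown first, because this gene defines the tissue. Ucp1 lies on the plus strand of chromosome 8 at 83290348 to 83298456 in mm10. The windows reach 100 bases to each side of the summit and are written on the plus strand. Capitals mark matches of any of the 16 short patterns that were searched, which are named with their results further on. The upstream summit at 4707 bp had a score of 13.7, that at 2456 bp upstream a score of 16.7, and that at 2318 bp downstream, in the second intron, a score of 17.2. The third window held 1 match, to the C/EBP pattern, on the reverse strand.
Ucp1, 4707 bp upstream, intergenic, chr8:83285541-83285741: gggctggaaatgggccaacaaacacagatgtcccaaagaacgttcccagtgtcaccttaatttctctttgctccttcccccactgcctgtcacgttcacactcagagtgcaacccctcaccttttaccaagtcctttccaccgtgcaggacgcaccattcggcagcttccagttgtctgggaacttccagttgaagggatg
Ucp1, 2456 bp upstream, intergenic, chr8:83287792-83287992: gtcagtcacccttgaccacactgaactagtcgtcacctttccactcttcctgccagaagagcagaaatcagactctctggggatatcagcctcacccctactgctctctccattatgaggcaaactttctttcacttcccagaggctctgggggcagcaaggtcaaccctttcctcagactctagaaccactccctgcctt
Ucp1, 2318 bp downstream, intron, chr8:83292566-83292766: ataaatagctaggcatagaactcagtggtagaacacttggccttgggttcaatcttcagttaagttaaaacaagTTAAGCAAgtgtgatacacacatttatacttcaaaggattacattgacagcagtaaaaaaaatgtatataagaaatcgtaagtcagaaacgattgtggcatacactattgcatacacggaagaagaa

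The next window shows the strongest flanking summit of the thermogenic list, in the first intron of Aifm2, which encodes an oxidoreductase at the lipid droplet. Its score was 19.02, and it lay 2711 bp downstream of the nearer of this gene's 2 start sites. None of the 16 patterns had a match in it.
Aifm2, 2711 bp downstream, intron, chr10:61723260-61723460: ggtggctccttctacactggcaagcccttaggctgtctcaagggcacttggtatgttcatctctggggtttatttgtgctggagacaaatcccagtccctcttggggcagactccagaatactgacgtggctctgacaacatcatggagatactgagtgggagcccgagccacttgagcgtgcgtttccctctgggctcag

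For 4 factors, the highest-scoring flanking summit with a match within 50 bp is shown with 50 bases to each side, plus strand, and the match in capitals. CTCF is an insulator protein that marks loop boundaries, DR1 is the direct repeat bound by Pparg with its partner Rxr, NFI factors act in brown fat development, and EBF is the family of Ebf2. Their scores were 32.9 at Clptm1, 11.5 at Mafk, 2.92 at Bahcc1 and 43.7 at Adamts1.
CTCF, 4085 bp upstream of Clptm1, intergenic, chr7:19669065-19669165: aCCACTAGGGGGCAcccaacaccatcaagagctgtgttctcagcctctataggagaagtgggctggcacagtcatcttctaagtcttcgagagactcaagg
DR1, 2298 bp downstream of the Mafk start, intron, chr5:139793784-139793884: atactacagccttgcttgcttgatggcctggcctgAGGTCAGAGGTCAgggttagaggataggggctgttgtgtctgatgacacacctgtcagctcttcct
NFI, 1283 bp upstream of Bahcc1, intergenic, chr11:120231614-120231714: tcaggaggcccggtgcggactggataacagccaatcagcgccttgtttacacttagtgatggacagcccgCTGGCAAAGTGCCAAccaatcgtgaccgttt
EBF, 2185 bp downstream of the Adamts1 start, intron, chr16:85800878-85800978: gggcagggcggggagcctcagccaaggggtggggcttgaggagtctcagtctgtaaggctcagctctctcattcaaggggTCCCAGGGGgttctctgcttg
The DR1 match lay within 15 bases of its summit and the EBF match 30 to 38 bases from it.

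Flanking summits were more dense than summits farther out and less dense than those at start sites. The sequence that meets the rule came to 146 Mb, or 6.10% of the assembled bases of these chromosomes, and held 28.6 summits per Mb. Summits within 1 kb of a TSS stood at 237 per Mb, 8.28 times as dense. Non-exonic sequence 5 to 50 kb from a TSS held 12.1 summits per Mb and that beyond 50 kb held 3.87, so that the flanking zone was 2.36 and 7.40 times as dense as these. By number, 10271 summits lay within 1 kb, 2221 in exons farther out, 9883 at 5 to 50 kb and 5173 beyond 50 kb.

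Density fell with distance on both sides of the start. Downstream it went from 62.7 summits per Mb in the first 250-bp bin beyond 1 kb to 40.5 in the bin that ends at 2 kb and 19.9 in the one that ends at 5 kb. Upstream it went from 41.2 to 27.3 and 14.7 per Mb over the same bins. The downstream side was the denser in all 16 bins, and over the whole zone it held 34.4 summits per Mb against 22.5 upstream. The bounds of the rule cut through this slope without a step. Within 50 bp of the 1-kb bound, 116 non-exonic summits lay just inside and 119 just outside, with median scores of 4.16 and 3.75. At the 5-kb bound there were 27 on each side, with median scores of 3.32 inside and 3.75 outside.

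**Figure D1:**
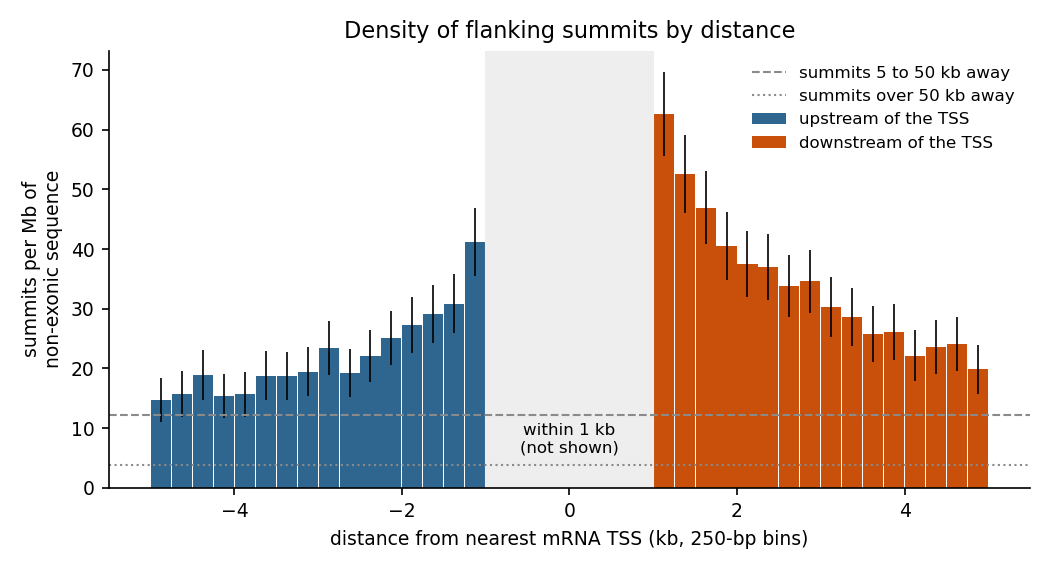
Flanking summits per Mb of non-exonic sequence (y axis) in 250-bp bins of distance from the nearest TSS (x axis, kb, upstream negative), with bars for counting error at 95%. The first downstream bin stands at 62.7 per Mb and the last at 19.9, above the dashed line of 12.1 for sequence 5 to 50 kb away.

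Of the flanking summits, 2573 lay downstream of the nearest start (61.5%, interval 60.1 to 63.0) and 1608 upstream (38.5%, 37.0 to 39.9). Introns held 2840 (67.9%), and 1341 (32.1%) were intergenic. Of the downstream summits, 2378 were in an intron of a transcript that begins at the nearest start, and for 1525 of these (64.1%) it was the first intron. The upstream side was mostly intergenic, with 411 of its 1608 summits (25.6%) inside another mRNA or another isoform.

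The scores of flanking summits were low. Their median was 4.16, with quartiles of 2.68 and 6.02, a lowest value of 1.33 and a highest of 199. The median was 8.65 for summits within 1 kb of a start, while those 5 to 50 kb away had 4.16 and those beyond 50 kb 4.34. A score of 10 or more was reached by 507 flanking summits (12.1%), against 42.9% within 1 kb, 16.2% at 5 to 50 kb and 15.9% beyond. The scores came in steps, with 474 distinct values over the 4181 summits and 332 summits at 4.16, so that equal scores at different genes are common. The strong ones were spread unevenly over places. A score of 10 or more was held by 14.9% of upstream summits (13.2 to 16.7) and 10.4% of downstream ones (9.29 to 11.7), and by 16.9% of intergenic summits (14.9 to 18.95) and 9.89% of intronic ones (8.85 to 11.05).

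In sequence, flanking summits stood closer to distant summits than to promoters. The median GC content of windows of 100 bases to each side was 53.7%, against 62.2% within 1 kb and 53.7% at 5 to 50 kb, while the sequence of the zone as a whole had 43.8%. The median ratio of observed to expected CpG was 0.211, against 0.748 within 1 kb. Windows with a GC content of at least 50% and a CpG ratio of at least 0.6, here called CpG-rich, numbered 301 (7.20%, interval 6.45 to 8.02), against 67.2% within 1 kb. CpG-rich flanking summits had a median score of 6.02 and the others 3.83. Repeats masked in the reference covered 29.8% of the zone's sequence and 385 of its summits (9.21%, 8.37 to 10.1), against 3.15% of summits within 1 kb, 14.0% at 5 to 50 kb and 33.0% beyond 50 kb.

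**Figure D2:**
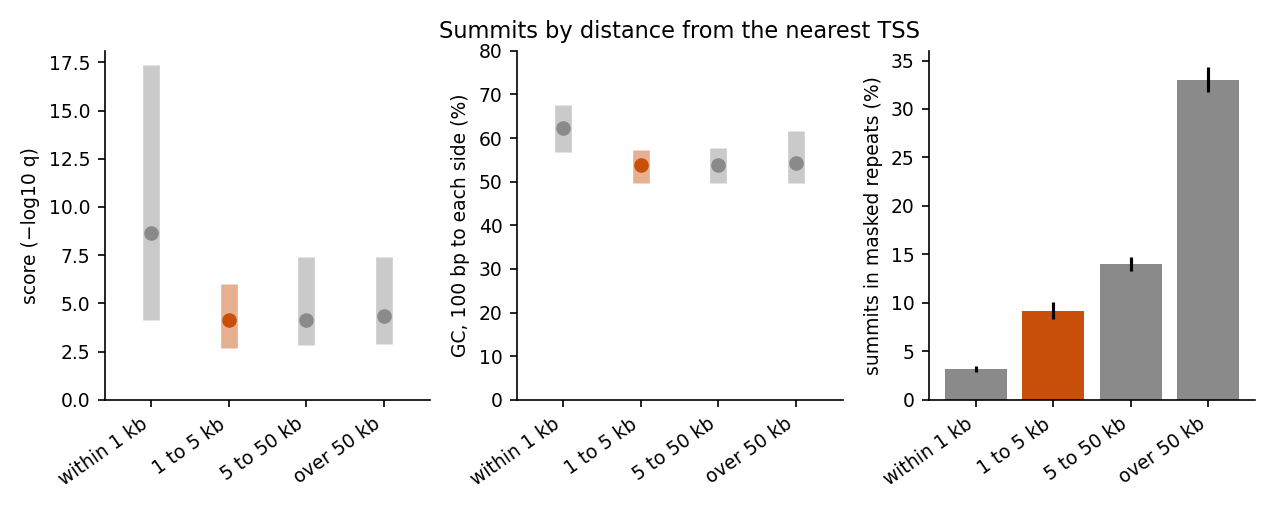
Score (left), GC content of the window 100 bases to each side (middle) and share of summits in masked repeats (right) by distance from the nearest TSS, with exonic summits beyond 1 kb left out. Dots are medians and thick bars quartiles; thin bars are 95% Wilson intervals. The flanking zone (orange) has a median score of 4.16 against 8.65 within 1 kb.

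By chromosome the share of summits that were flanking ranged from 6.61% on chromosome 13 (67 of 1013) to 18.7% on chromosome 10 (308 of 1648). The density over the flanking sequence of each chromosome ranged from 11.7 per Mb on chromosome 13 to 43.6 on chromosome 15. Chromosomes 8, 10, 11, 15 and 19 stood between 39.5 and 43.6 per Mb.

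Some flanking summits lie at starts that curated mRNAs do not give. A start of a noncoding or predicted RefSeq transcript lay within 100 bp of 83 flanking summits (1.99%) and within 1 kb of 632 (15.1%), of which 116 were near a curated noncoding transcript. The 83 had a median score of 5.55 and a median GC content of 58.7%, while the 3549 with no such start within 1 kb had 4.00 and 53.7%.

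Of the 20021 genes with a curated mRNA on these chromosomes, 2700 were the gene of the nearest start of at least 1 flanking summit, which is 13.5%. A summit within 1 kb of a start, here called a promoter summit, was found at 9371 genes (46.8%). Among these 9371 genes, 2052 (21.9%) also had a flanking summit, and among the 10650 without a promoter summit 648 (6.08%) had one. Counted by summit, 3333 of the 4181 (79.7%, interval 78.5 to 80.9) belonged to a gene with a promoter summit. The flanking sequence per gene was of like size, with a median of 7416.5 bp for genes with both kinds and 7580 bp for genes with a promoter summit only.

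Promoter and flanking scores were almost unrelated in rank. Across the 2052 genes with both, Spearman's rho between the highest flanking score and the highest promoter score was 0.03, as a description over genes that share the same libraries. The share of genes with a flanking summit was 20.1%, 21.2% and 20.2% in the lower 3 quartiles of promoter score and 26.1% in the highest. At 436 of the 2052 genes (21.2%) the flanking summit outscored the promoter. Of the 2700 genes, 1788 had 1 flanking summit and 912 (33.8%) had more, which together held 2393 summits, and 446 genes had them on both sides of a start. The median distance from a flanking summit to the nearest other summit of any zone was 1534 bp, and 62.7% had one within 2000 bp.

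Among the 23 thermogenic and brown fat genes measured, 16 had a flanking summit (69.6%, interval 49.1 to 84.4), where 13.5% of all genes did. Their 30 flanking summits had a median score of 4.997 against 4.16 over all flanking summits. A score of 10 or more was reached by 8 of them, where 12.1% of all flanking summits did so. Promoter summits were found at 20 of the 23, of which 15 had a flanking summit (75%), where the share over all genes with a promoter summit was 21.9%. Per Mb of the list's own flanking sequence this came to 156 summits against 28.6 over the zone. Of the 30, 8 lay upstream and 22 downstream, where 38.5% of all flanking summits lay upstream.

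Ucp1 was the only gene of this list with 3 flanking summits of score 10 or more, at 13.7, 16.7 and 17.2 in the places given above. Its promoter score was 33.7, higher than each of them. Aifm2 had 2 flanking summits in its first introns, each counted from a different start. That at 2452 bp scored 14.0, where the highest summit within 1 kb of its start scored 10.9. That at 2711 bp scored 19.02, and the gene's promoter score of 30.1 came from its start. Cox8b, a subunit of cytochrome c oxidase found in brown fat and muscle, had its summit 2526 bp upstream (chr7:140902972) at a score of 15.4, above its promoter score of 6.02. Esrra, a nuclear receptor that drives mitochondrial genes, had a summit 1381 bp downstream at 11.5 and a promoter score of 59.5. The stronger flanking summits of the thermogenic list thus stood on either side of the start.

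The coactivators of the family of Ppargc1a, which raise mitochondrial gene expression, differed in their scores. Ppargc1b had summits at 1109 and 2490 bp downstream, with scores of 9.21 and 12.8, and a promoter score of 9.21. The second of these lay 22 bp from the start of a predicted transcript. Ppargc1a had 1 flanking summit, 1307 bp downstream, at 4.16, and a promoter score of 20.8. Prdm16, which sets brown fat identity, had summits 1628 and 1053 bp upstream at 2.15 and 5.07 and 1598 bp downstream at 7.05. Zfp516, a zinc finger factor that activates Ucp1, had 3 between 2.53 and 4.87.

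Cidea, a lipid droplet protein that marks brown fat, had 4 flanking summits, all in its first intron. They lay 1100, 2054, 2768 and 4874 bp from the start and had scores of 1.41, 3.75, 9.78 and 6.53, against a promoter score of 61.5. Bmp8b, a secreted factor of brown fat, had no promoter summit but had flanking ones at 1280 and 1936 bp downstream, with scores of 3.32 and 9.78. The rest of the thermogenic list had scores under 10 throughout. Slc25a20, the mitochondrial carnitine carrier, had 4.16 and 6.02, and the potassium channel gene Kcnk3 had 4.92 and 1.54. Elovl3, a fatty acid elongase raised in the cold, had 4.16, while Slc27a2 and Cpt1b, of fatty acid uptake and oxidation, had 3.32 each. An exonic summit 4266 bp downstream of the nearer Elovl3 start, outside the rule, scored 13.4, above the gene's promoter score of 9.78. Cox7a1, another cytochrome c oxidase subunit, had 1.54 at 2428 bp upstream.

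The other 7 genes of the thermogenic list had no flanking summit. Dio2, the deiodinase that activates thyroid hormone, had a promoter score of 6.02, Elovl6 18.3, Ebf2 12.5, Otop1 67.7 and Acot11 8.12. Esrrg and Adrb3, the adrenergic receptor of adipocytes, had no promoter summit either. Exonic summits 1479 and 2037 bp downstream of the Adrb3 start, at 3.35 and 5.07, fall outside the rule.

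**Figure D3:**
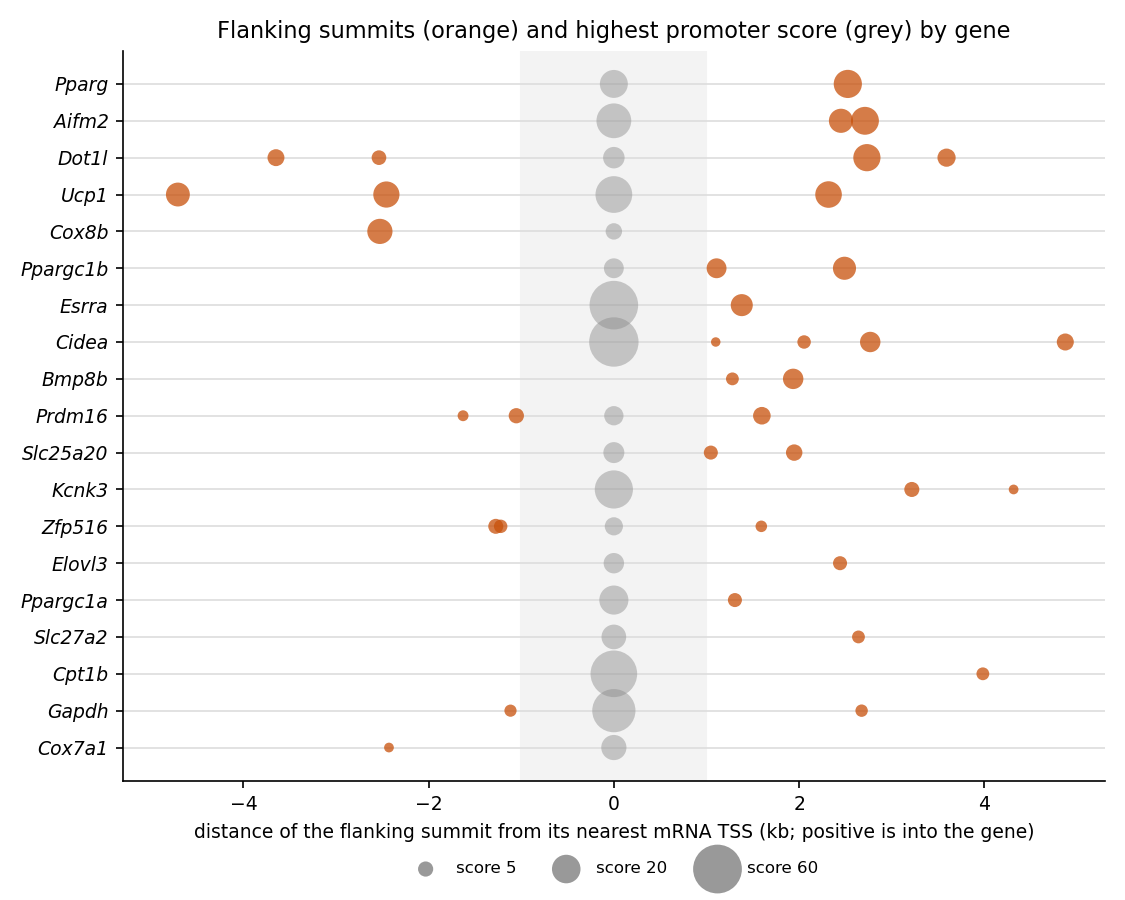
Flanking summits (orange) of the thermogenic genes and of the further list around Dot1l, at their distance from the nearest TSS (x axis, kb, positive into the gene), with genes ordered by their highest flanking score. Dot area grows with score, and the grey dot at 0 stands for the gene's highest score within 1 kb, not for a position. Cox8b and Dot1l have an orange dot larger than the grey one, Cidea and Esrra a far smaller one.

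A further list of 19 genes around Dot1l shares many members with the thermogenic list. It leaves out some genes that the study names and holds some, such as Ins1, that it does not. Of the 19, 10 had a flanking summit (52.6%, 31.7 to 72.7), where 13.5% of all genes had one. Of the 10, 3 are not on the thermogenic list. Pparg, the master regulator of fat cells, had a summit 2526 bp downstream of one of its 4 starts (chr6:115424592) at a score of 19.4. The summit within 1 kb of that start scored 12.8, and the gene's promoter score of 19.1 came from another start. Dot1l, the gene deleted in the Dot1L-BKO mice, had 4, at 3648 and 2536 bp upstream with 6.45 and 4.61 and at 2732 and 3592 bp downstream, in its first intron, with 18.1 and 7.58. The strongest of these, at chr10:80757935, stood above the promoter score of 10.9, and its window held matches to the CTCF and C/EBP patterns. Gapdh, a glycolytic enzyme often used as a reference gene, had 2 weak ones at 2.92 and 3.06 beside a promoter score of 46.9. An exonic summit 4180 bp downstream of the nearer Gapdh start, outside the rule, scored 45.5. Among the 9 without one were Zc3h10, Tfam, Hdac3, Hdac4, Dnmt1 and Cox20, which had promoter scores between 7.05 and 61.5, and Nrf1 and Ins1, which had none.

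The list of adipocyte identity and lipid storage had the largest share of the 13 lists, with 24 of 28 genes (85.7%, 68.5 to 94.3), where 13.5% of all genes had a flanking summit. Promoter summits were found at 26, where 46.8% of all genes had one. Of these 26, 23 had a flanking summit (88.5%), against 21.9% over all genes with a promoter summit. The 54 flanking summits came to 238 per Mb, against 28.6 over the zone, with a median score of 6.02. Of these summits, 17 scored 10 or more, where 12.1% of all flanking summits did. Klf15, a factor of lipid and glucose metabolism, had the strongest, 1081 bp downstream (chr6:90463657), at 37.6 against a promoter score of 8.65. Dgat1, which makes triglyceride, had 30.1 at 2900 bp upstream and 18.1 at 4686 bp downstream, beside a promoter score of 65.4. Gpd1, which supplies glycerol phosphate, had 28.8 at 1615 bp upstream, and Plin1, the coat protein of lipid droplets, 28.5 at 1980 bp upstream, both above their promoter scores of 16.0 and 23.1. The lipases Mgll and Pnpla2 had 27.7 and 19.4, the former above its promoter score of 5.55. Fabp4, a fatty acid carrier, had 4 summits, with the highest of 19.4 at 3013 bp upstream, and Agpat2, an enzyme of triglyceride synthesis, had 6, with the highest of 23.1 at 3549 bp downstream. Cebpb and Cebpa, which act with Pparg, had 21.2 and 12.8 downstream of the gene. Plin4, Cd36, Acly and Fabp5 had none.

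Genes that respond to cold and cAMP had flanking summits at 16 of 26 (61.5%, 42.5 to 77.6), against 13.5% of all genes. Among the 23 with a promoter summit, 69.6% had one, against 21.9% over all such genes. The list's 39 flanking summits had a median score of 4.16, the same as over all flanking summits. A score of 10 or more was reached by 7 of them, where 12.1% of all flanking summits did so. Per1, a clock gene that cAMP also induces, had 70.5 at 3806 bp upstream (chr11:69095143), above its promoter score of 36.7 and 32 bp from the start of a predicted Per1 transcript. Nr4a3, an immediate early nuclear receptor, had 42.8 at 2022 bp upstream (chr4:48043283), Dusp1, a phosphatase of MAP kinases, 21.8 at 4185 bp upstream, and Gadd45g, a stress response gene, 19.4 at 1154 bp upstream. Of the 39, 21 were upstream, against 8 of 30 in the thermogenic list and 38.5% of all flanking summits, differences that were not tested. Adrb1, Creb1 and Irf4 had promoter summits and no flanking ones.

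Of 19 circadian clock genes, 10 had a flanking summit (52.6%, 31.7 to 72.7), against 13.5% of all genes. Among the 15 with a promoter summit, 53.3% had one, against 21.9% over all such genes. The list's 14 flanking summits had a median score of 9.79, the highest of the 13 lists, and 7 scored 10 or more, where 12.1% of all flanking summits did. Beside Per1, which stands on both lists, Nr1d1, the repressor REV-ERBα, had 45.5 at 1393 bp downstream (chr11:98773984) with no promoter summit. Bhlhe40, a repressor of the clock, had 19.4 at 1072 bp upstream and Nfil3 12.8 at 4186 bp downstream. Per2 and Bhlhe41 had 10.9 each.

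Chromatin enzymes and partners of Dot1l had flanking summits at 12 of 28 genes (42.9%, 26.5 to 60.9), with 25 summits, against 13.5% of all genes. Among the 24 with a promoter summit, 41.7% had one, against 21.9% over all such genes. Ell, an elongation factor, had 30.1 at 4680 bp downstream beside a promoter score of 92.7. Mllt10, which binds Dot1l, had 10.9 at 1731 bp downstream, and Mllt6, of the same family, had 8.65 at 2783 bp upstream with no promoter summit. Kmt2d, Chd4 and Arid1a had 8.12, 7.05 and 7.58 at most.

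Most genes of 2 housekeeping lists had promoter summits, and the intervals of their flanking shares held the share of all genes. Oxidative phosphorylation had promoter summits at 24 of 27 genes and flanking ones at 6 (22.2%, 10.6 to 40.8), and the cytosolic ribosomal proteins at 27 and 6 of 28 (21.4%, 10.2 to 39.5), against 13.5% of all genes. Among their genes with a promoter summit, 25% and 22.2% had a flanking one, near the 21.9% over all genes with a promoter summit. Per Mb of their flanking sequence they held 52.7 and 55.6 summits against 28.6 over the zone. None of the 8 flanking summits in each list scored 10 or more, where 12.1% of all flanking summits did, and 8 summits are too few to set a list apart by this. Cox4i1 reached 7.05, Ndufs7 6.53, Ndufs8 6.02 and Sdhb 5.39, while Rpl11 reached 7.38, Rpl3 5.07 and Rps14 3.62.

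Markers of the other cells of the depot had flanking summits at shares from 18.75% to 31.2% of a list, against 13.5% of all genes, with intervals that all reach down to near or below that share. Of the 10, 4, 3 and 4 flanking summits of these lists, 1 reached a score of 10, where 12.1% of all flanking summits did. Among their genes with a promoter summit, 4 of 8 endothelial genes (50%), 2 of 3 macrophage and leukocyte genes (66.7%), 1 of 3 progenitor and mural genes and 1 of 3 skeletal muscle genes had a flanking one, against 21.9% over all such genes. Those shares rest on 8 genes at most, and those of the first 2 lists stand beside 53.3% in the clock list and 41.7% in the chromatin list. Endothelial markers had a flanking summit at 5 of 16 genes (31.2%), led by Egfl7 at 10.4, Esam at 5.07, Sox18 at 3.75 and Cldn5 at 2.53. Macrophage and leukocyte markers had one at 4 of 16, among them Spi1 at 3.75, Cd68 at 2.92 and Laptm5 at 2.53. Progenitor and mural markers had one at 3 of 16, Cspg4 at 3.44, Pi16 at 2.42 and Notch3 at 2.15, and skeletal muscle markers at 3 of 16, Myog at 9.78, Des at 6.53 and Mylpf at 3.73. Of 21 genes of neurons and pancreas 1 had one, Slc17a7, a vesicular glutamate transporter, at 6.02, and none had a promoter summit. Of the 6 brown adipocyte markers taken to check the tissue, Ucp1, Cidea, Cox8b, Cox7a1 and Prdm16 had flanking summits and Ebf2 had none, and the 4 adipocyte markers taken for it, Pparg, Adipoq, Fabp4 and Plin1, had them, of which Adipoq had 7.58. Other genes of the same lists, such as Dio2, Otop1, Adrb3, Plin4, Cd36 and Fabp5, had none, as given above. Bulk tissue holds all these cells, and fewer cells of a type cannot be told apart from fewer open sites per cell.

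**Figure D4:**
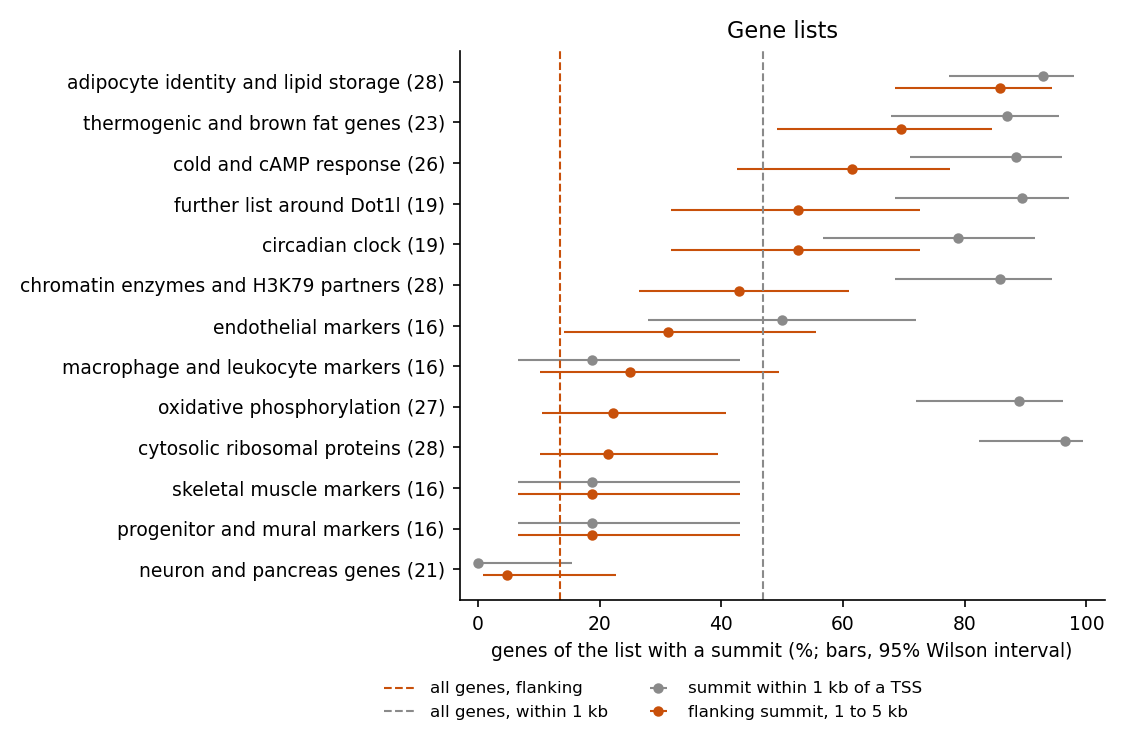
Share of each list's measured genes (number in brackets) with a flanking summit (orange) and with a summit within 1 kb (grey), with 95% Wilson intervals. The dashed lines mark all genes, at 13.5% and 46.8%. Oxidative phosphorylation and ribosomal protein genes stand far to the right in grey and near the orange line in orange.

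The 10 highest flanking summits were for the most part not at genes of these lists. The highest, at 199, lay 3712 bp upstream of Slc25a54 (chr3:109076787), and the sequence 500 bp to each side aligned to mitochondrial DNA over 262 bp with 82.8% identity. No other flanking summit had such a match of at least 200 bp. Another, at 159, lay 4260 bp upstream of Tmem125 (chr4:118547986), in a window of 64.2% GC and 580 bp from a predicted noncoding start. Per1 had 70.5 and Mknk2, a kinase of the translation factor eIF4E, 67.4 at 3378 bp upstream. Chd2, a chromatin remodeller, had 61.5 at 3814 bp downstream with no promoter summit, and Pmepa1, an inhibitor of TGF-β signalling, 60.5 at 4013 bp downstream. Fmc1 had 57.6 at 1098 bp upstream, Synpo 55.7 at 3893 bp downstream and Sin3a, the scaffold of a histone deacetylase complex, 55.7 at 1428 bp downstream. Of these 10, only Per1 lay within 100 bp of a noncoding or predicted start, where 1.99% of all flanking summits did. No promoter summit was found at 5 of the 10 genes, where 79.7% of all flanking summits belonged to a gene with one.

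The 5 genes with the most flanking summits had 7 to 9 each. Tpst2, a tyrosylprotein sulfotransferase, had 9, all intronic, with scores from 2.15 to 42.8 and the highest at 3175 bp downstream. Bcl9l, a coactivator of β-catenin, had 8 with a highest score of 16.7. Plec, which encodes the cytoskeletal linker plectin and has 11 annotated starts, had 8 with a highest score of 8.12. Aatk had 7, up to 10.9, and Acsl1, the acyl-CoA synthetase of fatty acid oxidation in brown fat, had 7, all between 3.32 and 8.65, beside a promoter score of 90.5. With 7 each there were 10 genes in all, from which Aatk and Acsl1 were taken in alphabetical order. Several starts give a gene more flanking sequence, which came to 22397 bp for Tpst2, 18506 bp for Plec and 15773 bp for Acsl1, against a median of 7469.5 bp over genes with a flanking summit.

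The short patterns were counted on both strands in the windows of 100 bases to each side and in 6059 windows centred 1 kb to either side with no summit within 500 bp, whose median GC content was 50.2%. Matches describe the letters only and do not show that a factor was bound. Patterns named by their factor alone are DR1, NFI and CTCF, and overlaps between patterns were not removed.

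The EBF, AP-1 and CTCF patterns were more frequent at flanking summits than 1 kb away, beyond their intervals. The EBF pattern TCCCNNGGG was in 342 windows (8.18%, interval 7.39 to 9.05) against 3.796% (3.34 to 4.31) of the windows 1 kb away, 2.15 times as often. The AP-1 pattern TGANTCA was in 8.04% (7.25 to 8.90) against 4.69% (4.18 to 5.25), and the C/EBP pattern TTGCNNAA in 8.01% (7.23 to 8.87) against 6.68% (6.08 to 7.34), with intervals that overlap. CTCF had 41 matches (0.981%, 0.724 to 1.33) against 0.231% (0.138 to 0.387), 4.24 times as often. DR1 was in 12 windows (0.287%) against 0.116%, with overlapping intervals, and NFI in 4 windows (0.0957%) against none. The CRE pattern TGACGTCA, through which cAMP acts, was in 27 (0.646%, 0.444 to 0.938) against 0.281% (0.175 to 0.449), where the intervals just meet.

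Patterns typical of promoters were rare at flanking summits. The SP/KLF pattern GGGGCGG was in 3.92% of flanking windows, 4.23% of those 1 kb away and 24.3% of summits within 1 kb of a TSS. NRF1 (GCGCANGCG) stood at 0.622% against 8.37% within 1 kb, ETS (CCGGAAGT) at 0.526% against 4.81%, and NF-Y (CCAATCA) at 2.18% against 7.14%. Against the summits beyond 5 kb, by contrast, EBF and C/EBP matches were fewer, at 8.18% against 12.4% and 8.01% against 15.3%. YY1 (AAGATGGCG) was in 0.215% of flanking windows and 0.149% of those 1 kb away. Its share was 1.61% within 1 kb of a TSS and higher still, at 2.96%, beyond 5 kb. For TEAD (GGAATG), FOX (TGTTTAC), ERR (TCAAGGTCA) and the E-box CACGTG the shares were 11.1%, 2.08%, 0.694% and 4.21% at flanking summits and 10.1%, 2.34%, 0.578% and 3.22% in the windows 1 kb away. In promoters as RefSeq gives them, 300 bases of 32851 starts on GRCm38, EBF had a match in 6.56%, AP-1 in 7.81%, C/EBP in 10.8%, SP/KLF in 23.2% and CTCF in 0.457%.

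Matches to EBF and CTCF were most frequent 25 to 49 bp from the summit base and less frequent at the base itself. In steps of 25 bp from it, EBF matches numbered 95, 127 and 115 in the first 3 and then fell to between 41 and 79 beyond 125 bp. CTCF matches numbered 6, 21, 10 and 8, and 5 or fewer in each step beyond 125 bp. For AP-1 the first 4 steps held 87 to 95 matches and the last 4 held 47 to 62. Flanking summits with a CTCF match reached a score of 10 in 29.3% of cases against 12.0% of those without, and those with C/EBP, AP-1 and EBF in 20.3%, 18.5% and 13.7%. For SP/KLF it was 30.5% against 11.4%.

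**Figure D5:**
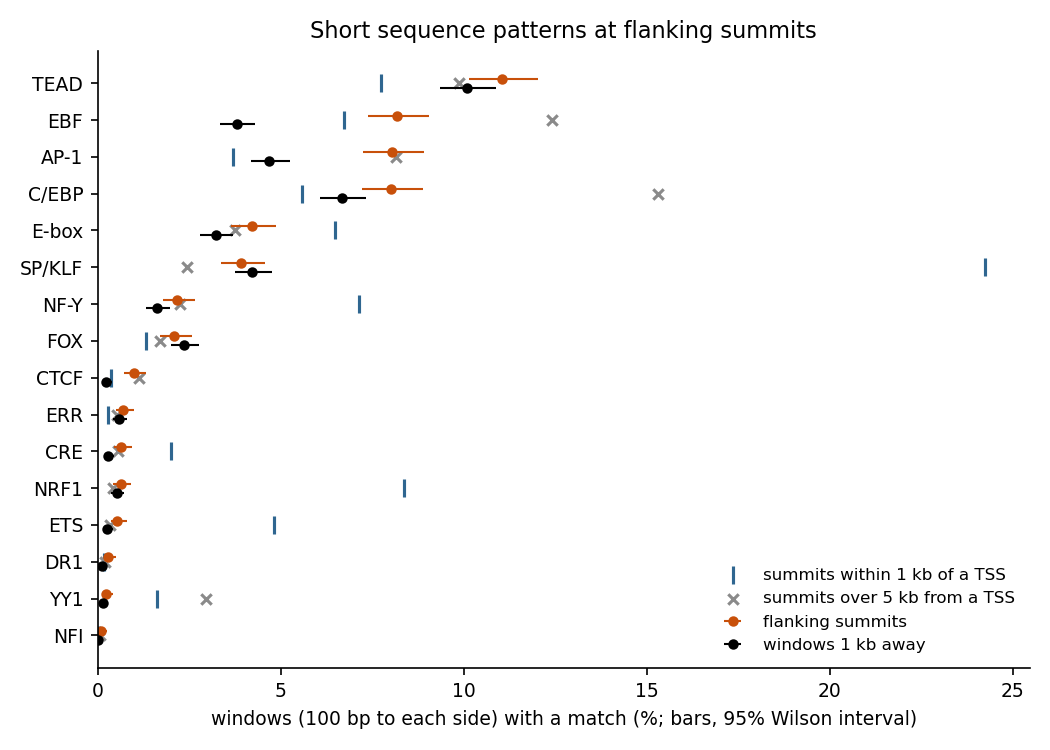
Share of windows (100 bases to each side) with a match to each of 16 patterns at flanking summits (orange) and in windows 1 kb away (black), with 95% Wilson intervals, beside summits within 1 kb (blue bars) and over 5 kb (grey crosses) from a TSS. EBF, AP-1 and CTCF stand clearly to the right of their black points, and SP/KLF stands at 3.92% against 24.3% within 1 kb.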

How the data were processed

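Nuclei of frozen BAT from 2 WT and 2 Dot1L-BKO mice were used for ATAC-seq. The submitters' processing notes name bcl2fastq 2.2, cutadapt 1.2.1, BWA, MACS2 2.1.1 and mm10. The authors deposited 1 list of summits for the 4 libraries, with the −log10 of the MACS2 q-value as the score of each. Transposase shift and duplicate removal are not given in the sources used here, and they cannot be redone from summits; read depth is unknown, which limits precision. RNA-seq libraries were not analysed here.

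From the list, distances to RefSeq mRNA starts (36208 mRNAs, 24831 starts, GRCm38.p6, which is mm10) were computed in Python 3.11.15 with numpy 2.4.6 and pandas 2.3.3. Density used non-exonic bases outside runs of N. Mitochondrial matches came from blastn 2.17.0 (e-value at most 1e-10, at least 200 bp). Functions were tested on simulated data. No test was made, since summits are not replicates and no value per library exists; 95% Wilson intervals cover counting error. The members and gene lists were chosen with earlier results of these data known. Named were all genes of the thermogenic list and the list around Dot1l with a flanking summit, the 10 highest summits, the 5 genes with most, and up to 4 of each other list by score; other names were chosen after values were seen. A few genes that this rule names are not reported here. No value column was left unmapped (0). Alternatives changed the score minimum, merging, transcripts, distances, exons, gene assignment and motif window.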

Additional observations from a re-analysis of the deposited data

How the results depend on the processing

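All summits stand in 1 list, and leaving out each replicate in turn was not run. No paired analysis was possible because scores per library do not exist in it. Depth is unknown and limits how low a peak can be called.

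A score minimum of 5 left 1522 flanking summits (9.58% of summits, 10.4 per Mb), of which 41.2% were upstream, 63.9% intronic and 7.49% masked. Their median score was 7.58 and median GC content 54.7%, 65.2% belonged to a gene with a promoter summit of that score, and 1251 genes, 9 of them thermogenic, had one. A score minimum of 10 left 507 (6.77%, 3.47 per Mb), of which 47.1% were upstream, 55.4% intronic and 5.72% masked, with a median score of 15.4 and GC of 55.2%. Then 46.2% belonged to a gene with a promoter summit of score 10 or more, while 75.1% belonged to one with a promoter summit of any score, and 471 genes had one, 5 of them thermogenic and 14 adipocyte genes. Fewer summits enter by construction.

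With the starts and exons of all RefSeq transcripts the share was 16.0% (19.8 per Mb), with 41.6% upstream, 73.3% intronic and 71.6% at genes with a promoter summit. With an outer distance of 3 kb there were 2676 (8.43%, 35.4 per Mb), and with an inner distance of 2 kb 2592 (8.17%, 24.03 per Mb). With exonic summits kept the share was 16.5% (33.5 per Mb), with 35.8% upstream, 74.3% intronic, 7.95% masked and a GC content of 54.7%. Merging summits within 500 bp left 4081 flanking summits at 2694 genes, and the shares and medians over all of them stayed within their intervals. Counting every gene with a start within 5 kb gave 2996 genes, 16 of them thermogenic and 25 adipocyte genes. Of 48 motif shares recomputed, 28 left their interval. With a window of 50 bases to each side 14 fell, since it holds fewer letters. With a score minimum of 10, 12 rose and 2 fell: SP/KLF went from 3.92% to 9.86%, NRF1 from 0.622% to 2.17%, CTCF from 0.981% to 2.37%, CRE from 0.646% to 1.58%, YY1 from 0.215% to 0.986% and C/EBP from 8.01% to 13.4%.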
